A study of Mus musculus with 23 samples.

Results

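The mucin family was described here as 10 genes, Muc1, Muc2, Muc3, Muc4, Muc5ac, Muc5b, Muc6, Muc13, Muc16 and Muc20, picked by gene symbol from the 55449 genes of the count table that were used. Gene expression was measured by RNA sequencing of bulk colon tissue from male C57BL/6 Cdx2Apc f/w mice that were 6 to 8 weeks old at the start and were fed a 60% high-fat diet (HFD). In these mice a Cre recombinase driven by the CDX2 promoter removes one floxed Apc allele in the distal gut epithelium. The engineered Apc change was thus the same in every group, and all were fed the same kind of diet. Per the paper's methods, mice to be colonized first drank water with neomycin, streptomycin and bacitracin. The mice were colonized with a Bacteroides fragilis 638R strain that carried the bile salt hydrolase gene bsh (BF BSHhigh) or with the same strain carrying an empty vector (BF BSHlow). Bile salt hydrolase is the bacterial enzyme that removes the amino acid from conjugated bile acids. As it is bacterial, the table holds no readout of the difference between the strains, and the count of Apc does not report on the floxed exon.

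Libraries were made from normal colon after 2 weeks (4 of BF BSHlow, 4 of BF BSHhigh) and from non-tumor tissue (4 and 4) and tumors (4 and 3) after 12 weeks, 23 libraries in all. The totals were between 12401388 and 17903008 counts per library. The 3 BF BSHhigh tumors are called a, b and c, because the table gives their columns no numbers of their own. Levels are counts scaled to library size (CPM) on 1 scale for the 23 libraries, and errors of levels are SD. Statements that groups overlap or not only describe the values, as the share of all genes without overlap was not counted. Nothing in the labels says whether libraries of a group came from separate mice, so p-values measure the spread between these libraries. For the 12-week libraries a legend of the paper speaks of independent samples and of pooled sample sizes, without saying how many mice each holds. In bulk tissue, fewer cells of a type and less RNA per cell cannot be told apart. Markers fixed for the epithelium (Epcam, Cdh1, Krt8, Krt18, Vil1 and Cdx2) were detected in all groups, with summed levels of 3633 to 14321 CPM. The tumors had 1087 to 1649 summed CPM of 6 WNT target genes, against 34.4 to 68.2 CPM in the other libraries.

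Mucins are large glycoproteins whose serine and threonine rich stretches carry dense O-linked sugar chains. Gel-forming mucins are secreted and make the mucus layer. In the colon the gel is built on Muc2, the main product of goblet cells, whereas Muc5ac and Muc6 are mucins of the stomach surface and stomach glands and Muc5b is best known from the airways. Transmembrane mucins such as Muc1, Muc3, Muc4, Muc13, Muc16 and Muc20 stay on the apical cell surface and form the glycocalyx. Muc3 and Muc13 are the abundant transmembrane mucins of the intestinal brush border.

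The genes of the gel-forming members lie together. On chromosome 7 (GRCm38, GENCODE M21), Muc6 (minus strand, 141633456 to 141655319), Muc2 (plus strand, 141690340 to 141754693), Muc5ac (141788972 to 141819231) and Muc5b (141839070 to 141873084) follow each other, with gaps of 35.0, 34.3 and 19.8 kb. Muc13 (33794037 to 33819934), Muc4 (32735886 to 32782391) and Muc20 (32777419 to 32797435) are on chromosome 16. Muc4 and Muc20 overlap by 4973 bases on opposite strands. Whether counting used the strand is not given in the sources used here, so that a read of this stretch may have been counted for the other gene. Muc3 (137134922 to 137149322) is on chromosome 5, 59.5 kb from Muc3a, a related gene that is not among the 10. Muc1 is on chromosome 3 (89229057 to 89233381) and Muc16 on chromosome 9 (18495455 to 18674530). The counts of the 10 genes were whole numbers in all 23 libraries, so the table holds no fractional share of reads between them and other genes.

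Promoter sequences (250 bases before to 50 after the start, RefSeq, GRCm38.p6) were at hand for 8 of the 10 members. They are shown for Muc2, Muc3 and Muc13, the members that fell in tumors of both strains, and for Muc6, the neighbour of Muc2 that rose. These were picked after their levels had been seen. Capitals mark matches on either strand to TTTATG (a Cdx-like motif), CAGCTG (an E-box), CTTTGAT and CTTTGAA (Tcf/Lef-like motifs) and GGGCGG (a GC box). None of these motifs overlap in the sequences shown.
Muc2, chr7:141690090-141690389, plus strand: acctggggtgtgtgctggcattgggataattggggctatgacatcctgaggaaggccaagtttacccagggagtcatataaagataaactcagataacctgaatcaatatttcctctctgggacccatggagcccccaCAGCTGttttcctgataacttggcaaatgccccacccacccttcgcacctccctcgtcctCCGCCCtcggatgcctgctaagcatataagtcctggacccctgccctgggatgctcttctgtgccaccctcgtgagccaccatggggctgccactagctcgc
Muc13, chr16:33793787-33794086, plus strand: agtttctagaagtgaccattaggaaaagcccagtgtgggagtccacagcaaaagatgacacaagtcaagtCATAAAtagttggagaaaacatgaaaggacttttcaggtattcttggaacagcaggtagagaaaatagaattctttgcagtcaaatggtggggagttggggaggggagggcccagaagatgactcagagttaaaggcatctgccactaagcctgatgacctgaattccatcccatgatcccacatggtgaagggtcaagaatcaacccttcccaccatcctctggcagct
Muc3, chr5:137165997-137166296, minus strand: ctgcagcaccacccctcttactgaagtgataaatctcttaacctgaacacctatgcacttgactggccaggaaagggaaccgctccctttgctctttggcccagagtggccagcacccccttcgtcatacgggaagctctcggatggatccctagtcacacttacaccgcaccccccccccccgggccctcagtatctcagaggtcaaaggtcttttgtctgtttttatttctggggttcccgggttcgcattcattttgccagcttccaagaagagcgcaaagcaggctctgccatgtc
Muc6, chr7:141655344-141655643, minus strand: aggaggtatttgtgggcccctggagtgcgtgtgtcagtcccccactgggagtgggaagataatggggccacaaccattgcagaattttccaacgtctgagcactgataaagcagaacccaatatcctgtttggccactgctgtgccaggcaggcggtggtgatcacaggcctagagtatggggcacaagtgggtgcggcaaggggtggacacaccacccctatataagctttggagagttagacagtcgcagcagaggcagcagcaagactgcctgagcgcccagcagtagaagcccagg
The Muc2 promoter held an E-box at -112 and a GC box, read on the other strand, at -52 relative to the start. The first of the 2 Muc13 starts in the table, shown here, had a Cdx-like motif on the other strand at -180, and the second start had no match. The Muc3 and Muc6 promoters had no match. Of the members not shown, Muc1 had 2 GC boxes, at -91 and -49, and Muc4, Muc16 and Muc20 had no match. A link between motifs and levels was not tested. The RefSeq start of Muc3 lies 16.7 kb from the start of the gene model that was counted, whose exons cover 1.94 kb, so that this promoter and the counts of Muc3 belong to different models. Of 32851 promoters of the same length, 11.9% held TTTATG, 16.3% CAGCTG, 3.73% CTTTGAT, 5.14% CTTTGAA and 35.7% GGGCGG.

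Divided by the length of all annotated exons, 3 members made up nearly the whole family level in colon without tumors. Muc3, Muc2 and Muc13 were at 1212 ± 369, 998 ± 287 and 668 ± 72.2 CPM per kb in normal colon of BF BSHlow mice at 2 weeks (n = 4). Their shares of the summed CPM per kb of the 10 members were 41.6% ± 4.50, 34.3% ± 4.23 and 23.7% ± 3.81 in that group. In the 16 libraries of normal and non-tumor colon the summed level was between 2102 and 3555 CPM per kb. In tumors the same sum was 141 to 177 CPM per kb for BF BSHlow and 325 to 912 CPM per kb for BF BSHhigh, below all libraries without tumor. The family was then mostly Muc13, with 88.7% ± 1.74 of the sum in BF BSHlow tumors (n = 4) and 70.6% ± 9.36 in BF BSHhigh tumors (n = 3). Muc3 and Muc2 held 0.939% ± 0.694 and 2.05% ± 0.810 in BF BSHlow tumors, against 13% ± 6.14 and 10.6% ± 5.80 in BF BSHhigh tumors. The exon length of Muc2 (7.13 kb) and Muc3 (1.94 kb) is that of partial gene models, which sets the height of their per-kb levels but not a difference of 1 gene between libraries.

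**Figure D1:**
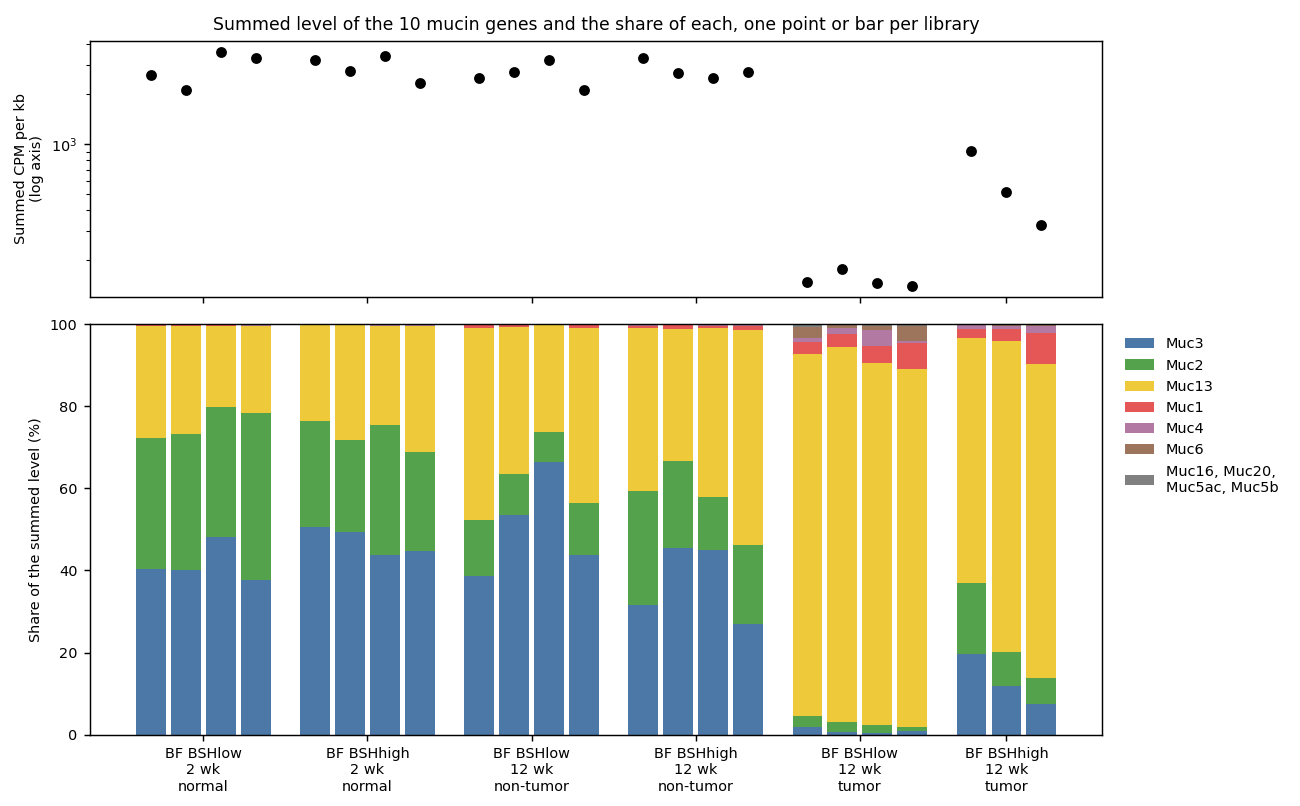
Upper panel, summed CPM per kb of exon of the 10 mucin genes in each library (log axis); lower panel, the share of each gene in that sum (%), 1 bar per library, libraries grouped by strain, time and tissue. Muc3, Muc2 and Muc13 fill the bars of normal and non-tumor colon, and Muc13 alone holds 87.2% to 91.2% in the BF BSHlow tumors.

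The other members were far lower. Muc4, a transmembrane mucin, was between 7.52 and 184 CPM, and Muc1, a transmembrane mucin of many epithelia, between 0.240 and 63.1 CPM. Muc20 did not exceed 4.29 CPM, and Muc16, the large transmembrane mucin of the ocular surface and the mesothelium, did not exceed 7.10 CPM. Muc5ac and Muc5b had at most 2 counts in any library. At 2 weeks Muc6 was at 0, 0.250, 0.284 and 0.141 CPM in BF BSHlow and at 0.363, 0, 0.520 and 0.160 CPM in BF BSHhigh mice, with at most 7 counts. Muc20 was at 0, 0.0834, 0.0947 and 0.0703 CPM and at 0.545, 0, 0.297 and 0 CPM, with at most 6 counts. Both were thus near the detection limit in normal colon of either strain. A count of 0 allows up to 3 counts, which is 0.134 to 0.284 CPM in these libraries (counting error only), and Muc5ac and Muc5b stayed under this limit.

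**Figure D2:**
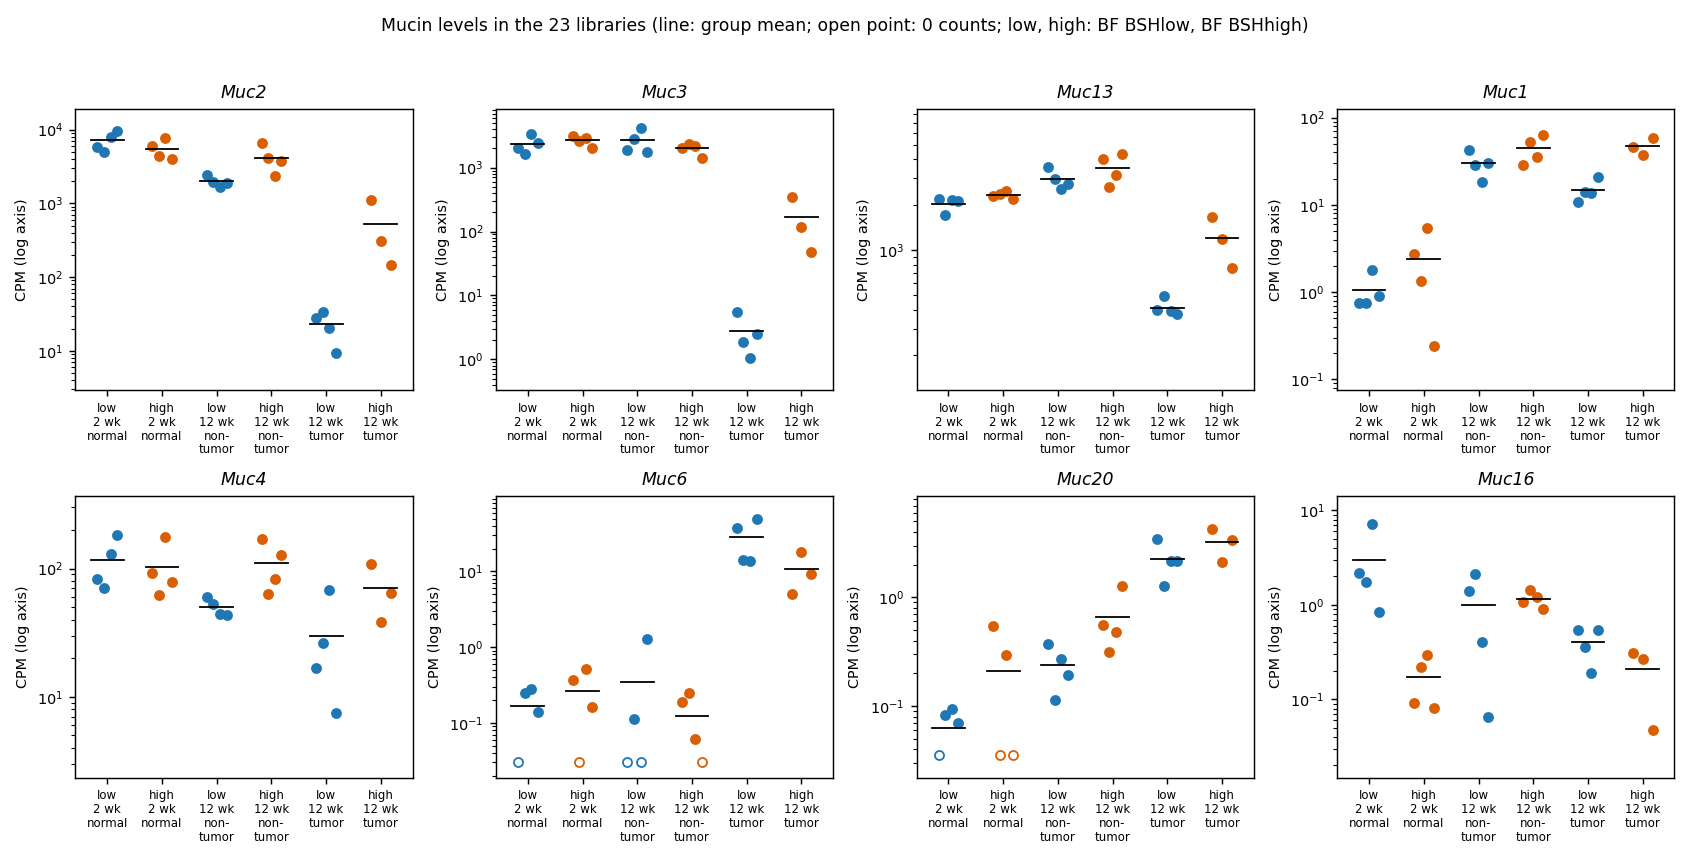
CPM (log axis) of 8 mucins in each of the 23 libraries, by group, with BF BSHlow in blue and BF BSHhigh in orange; lines are group means and open points are libraries with 0 counts. Muc2, Muc3 and Muc13 are lowest in tumors and lower in BF BSHlow than in BF BSHhigh tumors, Muc6 and Muc20 are highest in tumors, and Muc1 is lowest at 2 weeks.

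In tumors of BF BSHlow mice, Muc3, Muc2, Muc13 and Muc1 fell and Muc6 and Muc20 rose against non-tumor tissue at 12 weeks. Muc3 was at 1883, 2797, 4143 and 1782 CPM in the 4 non-tumor libraries and at 5.54, 1.85, 1.05 and 2.54 CPM in the 4 tumors, the deepest fall of the members. Muc2 was at 2442, 1936, 1679 and 1907 CPM in non-tumor tissue and at 28.0, 33.5, 20.6 and 9.33 CPM in tumors. Muc13 was at 3567, 2941, 2541 and 2733 CPM and at 399, 491, 391 and 374 CPM. For these 3 genes no tumor reached the lowest non-tumor library. The log2 fold changes were -9.92 ± 0.77 (SE) for Muc3, -6.46 ± 0.65 for Muc2 and -2.85 ± 0.23 for Muc13, with adjusted p from edgeR of 1.05e-07, 1.06e-06 and 1.52e-07. Muc1 fell by 1.02 on the log2 scale (SE 0.29, adjusted p = 0.00699 from edgeR), with overlapping groups of 18.2 to 42.5 CPM in non-tumor tissue and 10.9 to 21.1 CPM in tumors.

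Muc6 (encoding a gel-forming mucin of stomach glands) was close to absent from colon without tumors. It had 0, 2, 0 and 20 counts in the BF BSHlow non-tumor libraries, which is 0 to 1.29 CPM. In the tumors it was at 37.9, 14.1, 13.9 and 49.7 CPM (275 to 1018 counts), each above all libraries without tumor. The log2 fold change was 6.29 ± 0.89 (adjusted p = 2.7e-05 from edgeR) and was 9.17 without non-tumor replicate 4, the library with 20 counts. Muc20 rose by 3.23 ± 0.51 on the log2 scale (adjusted p = 6.84e-05 from edgeR), from 0.370, 0.114, 0.273 and 0.194 CPM (2 to 5 counts) to 3.43, 1.28, 2.15 and 2.15 CPM (25 to 70 counts). Muc4 was at 60.4, 53.1, 44.6 and 43.7 CPM in non-tumor tissue and at 16.9, 26.2, 68.0 and 7.52 CPM in tumors. With a log2 difference of -0.79 ± 0.52 (adjusted p = 0.194) it did not pass the test, but it did without tumor replicate 3 (-1.61, adjusted p = 0.0062 from edgeR). Muc16 (-1.29 ± 0.70, adjusted p = 0.119) did not pass either and passed without non-tumor replicate 4 (-1.68, adjusted p = 0.0186 from edgeR).

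A gene was called where its adjusted p was under 0.05 and it changed by more than 1 on the log2 scale in either direction. By that rule 2 of the 8 members tested were higher and 4 lower in BF BSHlow tumors, where 16.7% of all 16455 genes tested were called higher and 19.5% lower. The call of Muc1 was lost without non-tumor replicate 1 (log2 fold change -0.81) and without tumor replicate 1 (-0.91), it was lost with limma-voom (-0.99), and it was -0.69 (adjusted p = 0.0512 from edgeR) when libraries were scaled by their totals. That scaling shifted the median log2 fold change of all genes from 0.04 to 0.37 and the share of higher genes among those called from 46.2% to 61.4%, whereas the calls of the other 5 members did not depend on it.

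In tumors of BF BSHhigh mice, Muc3, Muc2, Muc13 and Muc16 fell and Muc6 and Muc20 rose. Muc3 was at 2032, 2364, 2176 and 1410.2 CPM in non-tumor tissue and at 348, 118 and 47.7 CPM in tumors a, b and c. Muc2 was at 6494, 4071, 2319.5 and 3693 CPM in non-tumor tissue and at 1117, 306 and 145 CPM in tumors. Muc13 was at 4013, 2616, 3122 and 4317 CPM and at 1659.9, 1188 and 753 CPM. The tumors were again below all non-tumor libraries, and tumor a was the highest of the 3 for each of these genes. The log2 fold changes were -3.55 ± 0.64 for Muc3, -3.0 ± 0.62 for Muc2 and -1.56 ± 0.24 for Muc13 (adjusted p from edgeR 0.000343, 0.000957 and 0.000104). Without tumor a they were -4.60 for Muc3 and -4.21 for Muc2.

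Muc6 was at 0.187, 0.249, 0.0606 and 0 CPM in BF BSHhigh non-tumor tissue (8 counts in all) and at 5.01, 18.1 and 9.29 CPM in tumors, a log2 fold change of 6.32 ± 1.02 (adjusted p = 0.00014 from edgeR) that was 5.72 without tumor b. Muc20 rose by 2.30 ± 0.47 on the log2 scale (adjusted p = 0.00095 from edgeR), from 0.562, 0.311, 0.485 and 1.27 CPM to 4.29, 2.10 and 3.34 CPM. Muc16 was at 0.898 to 1.43 CPM in non-tumor tissue and at 0.310, 0.268 and 0.0477 CPM in tumors, or 1 to 6 counts. Its log2 fold change of -2.44 ± 0.83 (adjusted p = 0.0212 from edgeR) lost the call without tumor c (-1.98, adjusted p = 0.0904 from edgeR). The values of Muc1 (0.05 ± 0.31) and Muc4 (-0.67 ± 0.55) did not pass the test. Thus 2 of 8 members were called higher and 4 lower, where 14.6% and 14.8% of all genes were, and scaling by library totals moved the median log2 fold change from 0.04 to 0.34 and the share of higher calls from 49.6% to 66.2%.

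**Figure D3:**
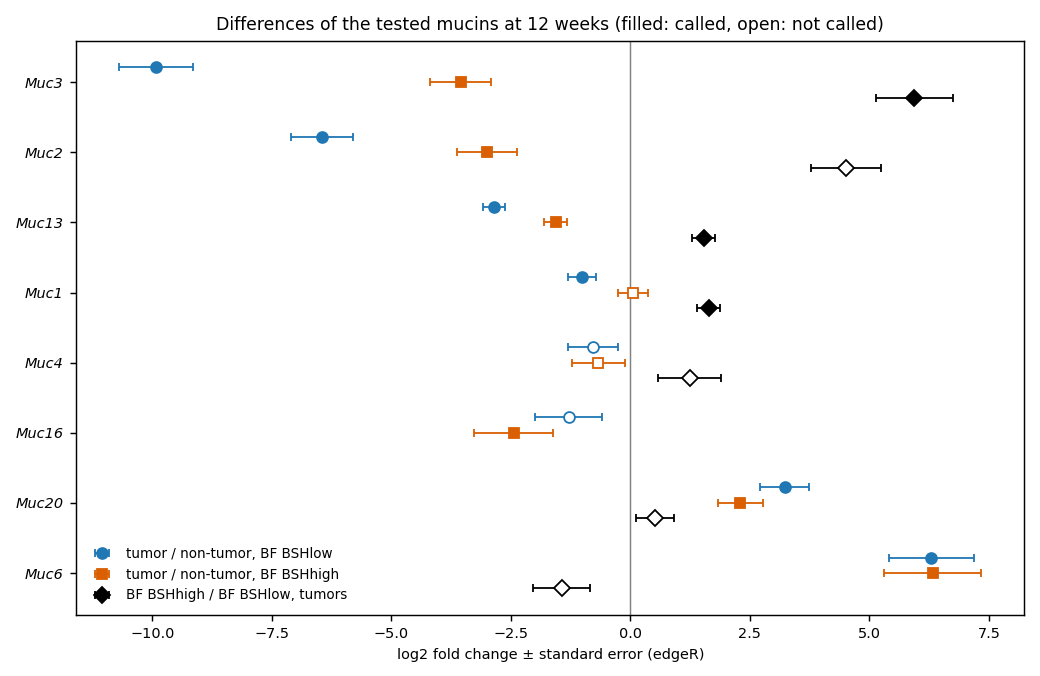
Log2 fold change (x axis, edgeR) with standard error of 8 mucins for tumor against non-tumor tissue in BF BSHlow (circles) and BF BSHhigh (squares) mice and for BF BSHhigh against BF BSHlow tumors (diamonds); filled symbols were called, and Muc16 was not tested between tumors. Muc3 stands at -9.92 in BF BSHlow and at -3.55 in BF BSHhigh mice, and Muc6 at 6.29 and 6.32.

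Markers of other cells moved with the tissue. Summed smooth muscle markers were 1512 to 8467 CPM in non-tumor tissue and 117 to 343 CPM in tumors, and 6 of 6 were called lower in tumors of both strains. Goblet markers fell from 11318 to 29134 CPM to 129 to 3831 CPM, with 9 of 9 called lower in BF BSHlow and 8 of 9 in BF BSHhigh mice. Absorptive colonocyte markers were called lower for 7 of 7 and 6 of 7 genes. Of 6 markers common to the epithelium, 1 was called higher and 3 lower in BF BSHlow tumors (log2 fold changes -3.91 to 1.51). In BF BSHhigh tumors 1 was called higher and 0 lower (-1.30 to 1.14). Squamous markers summed to 1.48 to 3.45 CPM in non-tumor tissue and to 39.5 to 216 CPM in tumors, with all 6 that were tested called higher in both strains. Of 5 stomach markers tested, 4 were called higher in tumors of both strains (Tff1, Gkn1, Gkn3 and Anxa10, named after their values had been seen), and the stomach marker Gkn2 had 0 counts in all 23 libraries. Of all genes tested, 16.7% were called higher and 19.5% lower in BF BSHlow tumors, and 14.6% and 14.8% in BF BSHhigh tumors. The stomach sum was 8.60 to 39.4 CPM in tumors and 10.2 to 30.2 CPM in non-tumor tissue, where Vsig1 supplied most of it. Their part in the changes of the mucins was not tested.

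Between tumors, Muc3, Muc13 and Muc1 were higher in BF BSHhigh than in BF BSHlow mice. The groups did not overlap for Muc3 (47.7 to 348 against 1.05 to 5.54 CPM), which was 61.4 times higher (log2 fold change 5.94 ± 0.80, adjusted p = 0.0365 from edgeR). Nor did they for Muc13, with 753 to 1659.9 against 374 to 491 CPM (1.53 ± 0.24, adjusted p = 0.0481 from edgeR). Muc1 was at 46.0, 36.9 and 57.8 CPM against 10.9, 13.9, 13.8 and 21.1 CPM (1.64 ± 0.24, adjusted p = 0.0421 from edgeR). The groups of Muc2 did not overlap either, at 145 to 1117 against 9.33 to 33.5 CPM, but with a log2 difference of 4.51 ± 0.73 and an adjusted p of 0.0511 Muc2 stayed outside the threshold of edgeR's test. Muc6 differed the other way, with 5.01, 18.1 and 9.29 against 37.9, 14.1, 13.9 and 49.7 CPM, overlapping groups and no call (-1.44 ± 0.60, adjusted p = 0.365 from edgeR). Muc4 (1.24 ± 0.66) and Muc20 (0.51 ± 0.40) were not called. Of the 7 members tested, 3 were called higher, where 0.463% of all 15325 genes were, and 0 lower, where 0.0131% were. The median log2 fold change was 1.53 for the members and -0.03 for all genes. How many of all genes had no overlap between these tumors was not counted.

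These calls did not hold when single libraries were left out. Leaving out any 1 of BF BSHlow tumors 1 to 4 or BF BSHhigh tumors a or b gave 0 members called, whereas leaving out tumor c gave 4 (Muc1, Muc2, Muc3 and Muc13). All genes moved with them, as 73 were called as reported, 0 to 6 in those 6 fits and 240 without tumor c. The log2 fold change of Muc3 was 4.89 without tumor a and 6.56 without BF BSHlow tumor 1, and that of Muc2 was 3.29 without tumor a. Muc2 passed with DESeq2 (adjusted p = 2.46e-06), without a filter on low counts (0.00945 from edgeR), with library size scaling (0.0445) and with all 23 libraries in the fit (2.3e-05), whereas limma-voom gave 0.0811 for Muc2 and called Muc1 alone among the members (adjusted p = 0.0469).

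Of 9 goblet markers, 3 were called higher in the BF BSHhigh tumors (0 without BF BSHlow tumor 1, 3 or 4), with summed levels of 3831, 1254 and 657 CPM in tumors a, b and c and 129 to 209 CPM in BF BSHlow tumors. Of 6 colonocyte markers tested, 2 were called higher (Slc26a3 by 6.25 ± 0.98 and Aqp8 by 6.40 ± 0.92 on the log2 scale), with a median of 4.52. Car1, the most abundant of them in BF BSHlow tumors, had a log2 difference of 0.00 ± 0.50, and the sums were 730.0, 227 and 152 CPM against 54.4 to 141 CPM. Of 5 leukocyte markers, Jchain was called higher (5.60 ± 0.70, 86.7 to 116 against 0.0977 to 3.91 CPM), and the sums, mostly Lyz2, overlapped (624 to 761 and 208 to 678 CPM). Slc26a3, Aqp8, Car1 and Jchain, and Tmprss11b next, were named after their values had been seen. The sums of markers common to the epithelium overlapped (4581 to 6351 against 3633 to 6211 CPM), as did those of WNT targets (1231 to 1519.9 against 1087 to 1649 CPM). Of the 6 epithelial markers 0 were called, with a median log2 difference of 0.14 and values from -0.35 to 3.54. Of 6 squamous markers tested, 1 was called lower (Tmprss11b, -3.37 ± 0.53), and their sums were 39.5 to 58.4 against 81.7 to 216 CPM. Of all 15325 genes, 0.463% were called higher and 0.0131% lower between these tumors. Within a tumor, Muc2 was 22.0% to 29.1% of the summed goblet markers in BF BSHhigh and 7.22% to 16% in BF BSHlow mice. Muc3 was 31.3% to 52.0% of the summed colonocyte markers in BF BSHhigh and 1.31% to 4.95% in BF BSHlow tumors, where Car1 made up most of the sum. The log2 differences of the single colonocyte markers spread from 0.00 to 6.40, a range too wide to set the value of Muc3 (5.94) against. How far cell numbers set these levels was not tested.

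**Figure D4:**
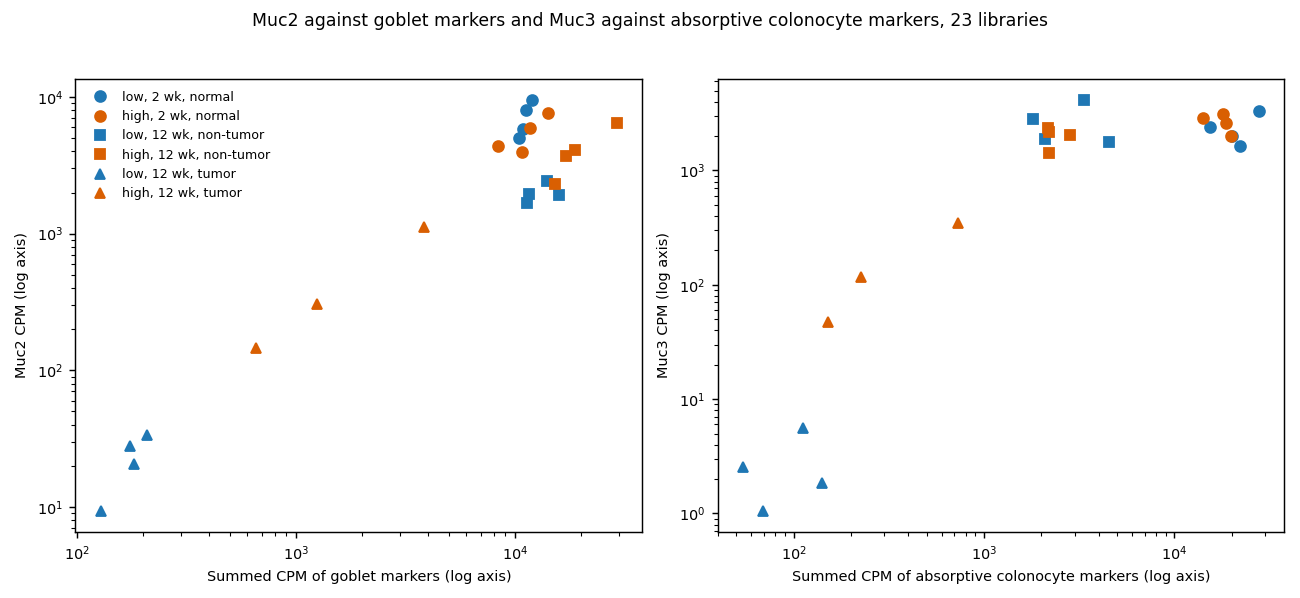
Left, Muc2 CPM against the summed CPM of 9 goblet markers; right, Muc3 CPM against the summed CPM of 7 absorptive colonocyte markers, in 23 libraries (log axes; circles normal colon, squares non-tumor, triangles tumors; blue BF BSHlow, orange BF BSHhigh). The BF BSHlow tumors hold the lowest values on both axes, and the 2-week libraries have more colonocyte markers, mostly Car1, than the 12-week non-tumor libraries at like levels of Muc3.

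Whether the fall from non-tumor tissue to tumor differed between the strains was tested by an interaction term. It was called for Muc3, with a log2 difference of 6.36 ± 0.83 (adjusted p = 0.00481 from edgeR), and for Muc2, with 3.46 ± 0.77 (adjusted p = 0.0482). The values of the other members were 1.29 ± 0.32 for Muc13 (adjusted p = 0.0772 from edgeR), 1.08 ± 0.42 for Muc1, 0.12 ± 0.75 for Muc4, -0.93 ± 0.69 for Muc20, -1.15 ± 1.07 for Muc16 and 0.02 for Muc6, which ranged from -2.85 to 0.56 with single libraries left out. Thus 2 of 8 members were called higher, where 0.972% of all 16455 genes were, and 0 lower, where 0.00608% were. Muc3 was called after leaving out any 1 of the 15 libraries (4 strain and tissue groups), with 5.34 to 6.96 and the lowest value without tumor a and the highest without BF BSHlow tumor 1. Muc2 was called only after leaving out tumor c, and was 2.27 without tumor a (adjusted p = 0.142 from edgeR). With limma-voom neither was called (Muc3 adjusted p = 0.0988, Muc2 adjusted p = 0.15), nor was any other of the 16455 genes, of which edgeR called 161. Muc13 was called with DESeq2 (adjusted p = 0.00605), with all 23 libraries in the fit (0.0171 from edgeR) and without tumor c (0.00719).

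In colon without tumors, Muc1 changed most between 2 and 12 weeks. Muc1 was at 0.758, 0.750, 1.80 and 0.914 CPM in BF BSHlow mice at 2 weeks and at 42.5, 29.0, 18.2 and 30.3 CPM at 12 weeks. In BF BSHhigh mice it was at 2.72, 1.33, 5.42 and 0.240 CPM and at 28.4, 53.0, 35.3 and 63.1 CPM. No 2-week library reached the lowest 12-week one. The log2 fold changes were 4.84 ± 0.36 and 4.21 ± 0.58 (adjusted p = 1.65e-05 and 0.000351 from edgeR), and the latter was 5.01 without 2-week replicate 3. In the tumors Muc1 was at 10.9 to 57.8 CPM, above all 2-week libraries.

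Muc2 fell with time in BF BSHlow mice, from 5872, 5025, 8029 and 9529.6 CPM to 2442, 1936, 1679 and 1907 CPM (log2 fold change -1.85 ± 0.23, adjusted p = 0.000298 from edgeR). In BF BSHhigh mice it was at 5921, 4384, 7628 and 3990.1 CPM at 2 weeks and at 6494, 4071, 2319.5 and 3693 CPM at 12 weeks, overlapping groups with a log2 difference of -0.39 ± 0.31 (adjusted p = 0.311 from edgeR). Muc4 changed by -1.23 ± 0.28 on the log2 scale in BF BSHlow mice (adjusted p = 0.00658 from edgeR), a call that was lost without 2-week replicate 4 (-0.93) and with all 23 libraries in the fit (adjusted p = 0.0523 from edgeR). In BF BSHhigh mice its value was 0.12 ± 0.37. Muc16 was at 0.0908, 0.221, 0.297 and 0.0801 CPM in BF BSHhigh mice at 2 weeks and at 1.06, 1.43, 1.21 and 0.898 CPM at 12 weeks (2.66 ± 0.43, adjusted p = 0.000884 from edgeR). In BF BSHlow mice the Muc16 libraries spread 8.42-fold and 32.8-fold within a group, with 2.20, 1.75, 7.10 and 0.844 CPM at 2 weeks and 1.41, 2.12, 0.409 and 0.0645 CPM at 12 weeks (-1.54 ± 0.86, not called). Muc3 was not called in either strain (0.16 ± 0.30 and -0.40 ± 0.19). Muc13 was higher at 12 weeks by 0.53 ± 0.15 and 0.62 ± 0.15 on the log2 scale (adjusted p = 0.0203 and 0.00832 from edgeR), under the fold limit of a call.

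Of the 6 members tested over time, 1 was called higher and 2 lower in BF BSHlow mice, where 15.1% and 7.59% of all genes were, and 2 higher and 0 lower in BF BSHhigh mice, where 15.9% and 7.34% were. Scaling by library totals shifted the median of all genes from -0.02 to 0.22 and from 0.02 to 0.30 and the share of higher calls from 66.6% to 76.2% and from 68.5% to 79.2%. The difference between the strains in the change with time was tested as well, a test added after the values had been seen. It called 0 members and 0% of 15533 genes in either direction (edgeR), with 1.45 ± 0.40 for Muc2 (unadjusted p = 0.00267, adjusted p = 0.427), 1.34 ± 0.51 for Muc4 and 4.21 ± 1.13 for Muc16, and 3 of 6 members at an unadjusted p under 0.05, as were 7.31% of all genes. DESeq2 called 0 members too, and 26 of the 15533 genes. The tissues also differed in other cells, as smooth muscle markers summed to 7.08 to 206 CPM at 2 weeks and to 1512 to 8467 CPM at 12 weeks, and in colonocyte markers, with 14114 to 27749.8 and 1806 to 4556 CPM. The tissue is labelled normal colon at 2 weeks and non-tumor at 12 weeks. Time, with age and the length of colonization, and the way the tissue was taken therefore cannot be told apart.

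The gel-forming Muc2 and its cell type markers did not keep 1 ratio over time. Muc2 was 36.9% to 80.0% of the summed goblet markers at 2 weeks and 12.0% to 22.3% in non-tumor tissue at 12 weeks. Goblet markers themselves summed to 8409 to 14225 CPM at 2 weeks and to 11318 to 29134 CPM at 12 weeks, with overlapping ranges. For Muc3 the ratio went the other way, with 7.43% to 20.2% of the colonocyte markers at 2 weeks and 39.1% to 155% at 12 weeks. That ratio moved with 4 of the 7 colonocyte markers (Car1, Guca2a, Krt20 and Cyp2c55), which were called lower at 12 weeks in both strains, also named after their values had been seen. Of all genes, 7.59% and 7.34% were called lower in BF BSHlow and BF BSHhigh mice. Car1 had medians of 14325 and 408 CPM in BF BSHlow mice, whereas Slc26a3, Car4 and Aqp8 were not called in either strain. Per kb of exon, Muc3 was 0.931 to 2.19 times Muc2 at 2 weeks, 1.15 to 9.07 times in non-tumor tissue and 0.187 to 1.42 times in tumors.

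Between strains, no member was called in colon without tumors. At 2 weeks 0 of 6 members tested were called with edgeR, where 0.00727% of 13753 genes were called higher and 0% lower. Muc16 came closest, with 2.20, 1.75, 7.10 and 0.844 CPM (12 to 75 counts) in BF BSHlow and 0.0908, 0.221, 0.297 and 0.0801 CPM (1 to 4 counts) in BF BSHhigh mice. Its groups did not overlap, and its log2 difference of -3.99 ± 0.77 had an unadjusted p of 0.000388 and an adjusted p of 0.34 from edgeR. It was the 1 member at an unadjusted p under 0.05, as were 6.8% of all genes, and it passed with DESeq2 (adjusted p = 0.000577) and without BF BSHlow replicate 4 (0.0436 from edgeR), with adjusted p of 0.000577 to 0.590 over 9 other settings. Mesothelial markers overlapped between these groups (1.75 to 4.70 and 2.60 to 4.17 CPM). The groups did not overlap for Muc13, with 2172 to 2465 CPM in BF BSHhigh against 1702 to 2162 CPM in BF BSHlow mice, a log2 difference of 0.18 ± 0.12 that was not called (adjusted p = 0.854 from edgeR). Muc1 varied 22.5-fold among the 4 BF BSHhigh libraries of 2 weeks. In non-tumor tissue at 12 weeks 0 of 6 members tested were called, where 0% of 14934 genes were called higher and 0% lower. There Muc2 and Muc4 were higher by 1.05 ± 0.28 and 1.12 ± 0.28 on the log2 scale (unadjusted p = 0.00425 and 0.00311, adjusted p = 0.363 and 0.328 from edgeR), the 2 members at an unadjusted p under 0.05, as were 9.23% of all genes, and DESeq2 called these 2 members (adjusted p = 0.0107 and 0.00938, against highest values of 0.643 and 0.649 over the other settings). Muc4 was at 169, 63.0, 82.8 and 128 CPM in BF BSHhigh against 60.4, 53.1, 44.6 and 43.7 CPM in BF BSHlow non-tumor tissue, without overlap. In neither comparison was the share of all genes without overlap counted.

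Mucins reach the surface only after glycosylation and packaging, so 29 genes of mucin O-glycosylation and 14 goblet granule and transcription factor genes were followed beside them. The latter include all 9 goblet markers used above, so these lists do not give separate results. In BF BSHlow tumors 19 of 27 glycosylation genes tested were lower and 2 higher than in non-tumor tissue, with a median log2 fold change of -2.29 against 0.04 for all genes, of which 19.5% were lower and 16.7% higher. The deepest falls were those of Gal3st2 (a galactose sulfotransferase, -6.36 ± 0.49), Galnt5 (which starts O-glycans, -5.45 ± 0.36) and Slc26a2 (a sulfate transporter, -5.34 ± 0.39). In BF BSHhigh tumors 19 were lower and 1 higher (14.8% and 14.6% of all genes), with a median of -1.86, and Galnt5 (-3.66 ± 0.35), Slc26a2 (-3.40 ± 0.40) and Gal3st2 (-3.35 ± 0.44) fell deepest. Of the 14 granule and factor genes, 12 were lower in BF BSHlow tumors, led by Zg16 (-10.63 ± 1.03), Clca1 (-8.90 ± 1.0) and Fcgbp (-6.97 ± 0.53), which encode proteins secreted with Muc2. In BF BSHhigh tumors 11 were lower, led by Clca1 (-4.44 ± 0.92), Zg16 (-3.46 ± 0.83) and Fcgbp (-3.44 ± 0.51).

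Between the tumors of the strains, 1 of 26 glycosylation genes was called, B3galt5 (a galactosyltransferase), higher by 2.13 ± 0.34 on the log2 scale (adjusted p = 0.0481 from edgeR). Of the 14 granule and factor genes, 3 were higher in BF BSHhigh tumors, the same 3 as among the goblet markers above. They were Zg16 (7.78 ± 1.11), Retnlb (an antibacterial goblet protein, 6.21 ± 0.89) and Fcgbp (4.08 ± 0.61). The list had a median of 2.39, and 0.463% of all genes were called higher. Leaving out BF BSHlow tumor 1, 3 or 4 gave 0 genes called in the whole table, so that these calls and that of B3galt5 were lost there. The interaction term called Gal3st2 (3.0 ± 0.62), B3galt5 (1.84 ± 0.37), Zg16 (7.18 ± 1.11), Fcgbp (3.53 ± 0.61) and Tff3 (3.13 ± 0.60), where 0.972% of all genes were called higher, and limma-voom called 0 of the 16455 genes. At 2 weeks St3gal4, a sialyltransferase, was higher in BF BSHhigh mice by 1.11 ± 0.11 on the log2 scale (adjusted p = 0.0251 from edgeR), as the 1 gene called in that comparison. With single libraries left out, 0 genes were called in 6 of the 8 fits without 1 library (BF BSHlow replicate 1 or 3 or any BF BSHhigh replicate) and 37 without BF BSHlow replicate 4, and 0 were called higher with the replicate number as a block.

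Over time 3 of 27 glycosylation genes rose and 5 fell in BF BSHlow mice (15.1% and 7.59% of all genes), and the latter included B3gnt6, the core 3 enzyme (-5.97 ± 0.38), Gcnt4 (-3.43 ± 0.44) and B4galnt2 (-2.47 ± 0.16). In BF BSHhigh mice 3 of 27 rose and 6 fell (15.9% and 7.34% of all genes), with B3gnt6 (-3.83 ± 0.55), Gcnt4 (-3.51 ± 0.36) and St3gal6 (2.01 ± 0.34) changing most. Of the granule and factor genes, Retnlb fell (-5.72 ± 0.87) and Foxa2 rose (1.85 ± 0.18) in BF BSHlow mice. In BF BSHhigh mice 6 rose, among them Spink4 (2.13 ± 0.34) and Foxa2 (1.88 ± 0.29), and Retnlb fell (-2.64 ± 0.78).

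Other mucins were compared for context. Muc3a, the relative beside Muc3, was at 170.3 to 232 CPM at 2 weeks, 17.3 to 58.8 CPM in non-tumor tissue at 12 weeks and 1.47 to 11.1 CPM in tumors. It fell with time in both strains, with log2 fold changes of -2.88 ± 0.20 (BF BSHlow) and -2.26 ± 0.25 (BF BSHhigh), and from non-tumor to tumor tissue, with -3.86 ± 0.38 and -2.57 ± 0.39. Muc3 was not called over time. Emcn, an endothelial sialomucin, rose with time (1.40 ± 0.41 and 1.75 ± 0.43). Muc15 and Muc19 had at most 2 counts in any library, and no gene with the symbol Muc17, Muc21 or Muc22 was found among the genes used.

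The genes most like Muc2 and Muc3 over the 23 libraries were taken by the smallest root mean square difference of centred log2 CPM. For Muc2 they were Clec2h (0.632), Slc16a5 (0.669), Slc39a5 (0.706), Prss30 (0.711) and Btnl4 (0.727), against a median of 3.09 for all other genes tested. Clec2h, for example, had means of 527 and 718 CPM at 2 weeks, 352 and 439 CPM in non-tumor tissue and 2.85 and 57.9 CPM in BF BSHlow and BF BSHhigh tumors. For Muc3 they were Pck1 (0.630), Slc26a3 (0.704), Sult1b1 (0.713), Gsdmc3 (0.721) and Gsdmc2 (0.756), with a median of 3.87 for the others. Slc26a3, the chloride and bicarbonate exchanger of absorptive colonocytes, had means of 620.3 and 603 CPM at 2 weeks, 658 and 448 CPM in non-tumor tissue and 0.248 and 19.4 CPM in tumors. The 23 points share their tissue groups, and both members vary most between tumors and other tissue, so these values describe the libraries as a whole.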

How the data were processed

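The deposited table holds expected counts per gene. Per the study's methods and the submitters' processing notes, the authors made them with RSEM, after adapter trimming (Cutadapt) and STAR alignment on the mm10 build. Versions, and whether counting used the strand, are not given in the sources used here. Counts were rounded (4.24% of values were not whole) and tested in edgeR 4.0.16 (R 4.3.3) by quasi-likelihood, with TMM scaling, filterByExpr and Benjamini-Hochberg adjustment over all genes tested. Strain and time contrasts used the libraries compared; tumor contrasts used the 15 libraries of 12 weeks. Standard errors are the log2 fold change over the square root of F, and none is given for Muc6 in the interaction, where the fold change is near 0 and this ratio is not reliable. DESeq2 1.42.0, limma-voom (limma 3.58.1), other scalings and filters, single libraries left out and a replicate block were the alternatives. Totals of 12401388 to 17903008 counts set the precision, and limits for a count of 0 cover counting error only.

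The 10 members are the mucin genes given by symbol; the members and lists were chosen with earlier results of these data known. Text names the members, the 3 genes of a list with the largest called change, and the 5 genes most like Muc2 and Muc3. The header repeats the names of 3 BF BSHlow tumors over the BF BSHhigh tumor columns. These columns were assigned as a group, without numbers, from another listing by the study that holds the same values under the group's name (100% of 1996 genes compared were equal). Same-numbered libraries had correlations of their deviations of -0.17 to 0.27 over 5 comparisons, and numbers were not read as pairs. Only tumor and non-tumor libraries of 1 strain could come from the same mice. For BF BSHlow these correlations were -0.06 to 0.17, and so few libraries cannot exclude pairs. Libraries of a group differed beyond sampling noise in all 33 pairs. One gene, Fgf6, was left out because 1 of its values in the table contains letters.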

Additional observations from a re-analysis of the deposited data

Results flagged for a closer look

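In 3 of 38 combinations of a mucin and a group of 4 libraries, 1 library stood apart from the others of its group by Dixon's criterion. Chance gives about 1 in 20 for independent, normally distributed values. The combinations share their libraries, and low counts such as those of Muc6 are not normally distributed, so that rate is only a rough guide. Muc1 in normal colon of BF BSHlow mice at 2 weeks was at 1.80 CPM in replicate 3 and at 0.750 to 0.914 CPM in the others. Muc6 in BF BSHlow non-tumor tissue was at 1.29 CPM in replicate 4 and at 0 to 0.114 CPM in the others. Muc13 in BF BSHlow mice at 2 weeks was at 1702 CPM in replicate 2 and at 2108 to 2162 CPM in the others.

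The difference between non-tumor tissue and tumor differed between the strains for Muc3, by 6.36 on the log2 scale (adjusted p = 0.00481 from edgeR's interaction term), and for Muc2, by 3.46 (adjusted p = 0.0482 from edgeR). The direction was a smaller fall in BF BSHhigh mice for both. Leaving out tumor a gave 5.34 for Muc3 and 2.27 for Muc2 (adjusted p = 0.142 from edgeR). The call of Muc2 was lost in 14 of the 15 fits without 1 library, with RLE scaling (adjusted p = 0.0519 from edgeR) and with limma-voom (0.15), and that of Muc3 was lost with limma-voom (0.0988).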

How the results depend on the processing

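The count of members called moved with the tool or filter in a few comparisons. DESeq2 called 1 member between strains at 2 weeks and 2 in non-tumor tissue, where edgeR called 0. Of all genes DESeq2 called 27 of 13753 and 59 of 14934 there, and edgeR 1 and 0. Between tumors limma-voom called 1 in place of 3 members and 41 in place of 73 genes. For the interaction of strain and tumor, scaling by RLE left 1 and limma-voom 0 of 2 members, and 157 and 0 of 161 genes. A filter of at least 1 CPM in 3 libraries left 1 of 2 over time in BF BSHhigh mice, where Muc16 was then not tested. Of all genes that filter gave 3335 called of 14278, against 3408 of 14638 as reported. The causes of the other changes were not tested. Leaving out single libraries gave 0 to 1 members between strains at 2 weeks, where 0 to 37 of 13936 to 14041 genes were called. Between tumors it gave 0 to 4 members and 0 to 240 of 15106 to 15671 genes. For tumor against non-tumor tissue in BF BSHlow mice it gave 5 to 7 members and 5756 to 5939 of 16352 to 16404 genes. In BF BSHhigh mice these were 5 to 6 members and 4209 to 4947 of 16385 to 16834 genes. The interaction with tumor called 1 to 3 members and 86 to 335 of 16352 to 16834 genes. Over time in BF BSHlow mice, 2 to 3 members and 3056 to 3735 of 14739 to 15026 genes were called.

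Of 1112 values of single members under other settings, 1028 kept their direction and their side of the threshold, 44 lost a call, 16 gained one and 24 changed sign. The setting that dropped the fold limit used the reported fit, so directions could not change there. A value without an adjusted p was counted as kept where its sign held. None of the sign changes were in a result called as reported. Muc1 in tumor against non-tumor tissue of BF BSHhigh mice was -0.00 with DESeq2 and -0.12 to 0.26 with single libraries left out. Muc6 in the interaction with tumor was -0.04 with library size scaling, -1.28 with limma-voom and -2.85 to 0.56 with libraries left out, and Muc4 was -0.32 to 0.93. With libraries left out, Muc4 was -0.60 to 0.10 and Muc16 -0.20 to 0.89 between strains at 2 weeks and in non-tumor tissue, respectively. Over time, Muc3 in BF BSHlow mice was -0.13 to 0.36 and Muc4 in BF BSHhigh mice -0.19 to 0.51. In the interaction of strain and time Muc1 was -1.01 to 0.16 and Muc13 -0.03 to 0.20. The causes were not tested.

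With the replicate number as a replicate block, 0 members were called between strains at 2 weeks and in non-tumor tissue, 6 in BF BSHlow tumors against non-tumor tissue, and 3 and 2 over time in BF BSHlow and BF BSHhigh mice, the same genes as without it. Of all genes, the block fits called 1 of 13753, 1 of 14934, 5009 of 15179, 3090 of 14555 and 3208 of 14638, in that order. No block could be fitted with tumors a, b and c, which carry no numbers. Muc5ac and Muc5b in all comparisons, Muc6 and Muc20 in comparisons without tumors and Muc16 between tumors had too few counts to be tested at this depth.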

Other observations

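Per kb of exon, the ratio of Muc2 to Muc13 was 0.783 to 1.93 at 2 weeks, 0.281 to 0.690 in non-tumor tissue at 12 weeks, 0.0106 to 0.0300 in BF BSHlow tumors and 0.0819 to 0.287 in BF BSHhigh tumors. In BF BSHlow non-tumor tissue this ratio kept within 0.281 to 0.298 over the 4 libraries, while the ratio of Muc3 to Muc13 spread from 0.827 to 2.56.

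Muc5ac had 4 counts over the 23 libraries, all of them in tumors, and Muc5b had 4, of which 3 were in BF BSHhigh tumors.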
